A study of Homo sapiens with 6 samples.

Results

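The members described here are the 37 genes of the human mitochondrial genome: 13 mRNA genes, 2 rRNA genes and 22 tRNA genes. They were chosen as every gene that GENCODE release 29 places on chromosome M, and they are 37 of the 58780 human genes in the deposited tables. RNA came from HCT116, a human colorectal carcinoma cell line, in 3 biological replicates exposed to auxin for 16 h and 3 that received DMSO, the solvent. Auxin, a plant hormone, is used to have the cell degrade a protein fused to a degron tag. The labels name no tagged protein, no clone and no other allele, so an effect of auxin itself and an effect of losing a protein cannot be told apart here. The question put to the data was how the mitochondrial RNAs changed among themselves, and against nuclear genes, between the auxin and DMSO libraries.

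The mitochondrial genome is a small circle of DNA that holds genes for subunits of the respiratory chain and for the RNAs that translate them. Its genes have no introns and lie almost end to end. POLRMT, the mitochondrial RNA polymerase, copies each strand into long transcripts with the help of TFAM, TFB2M and the elongation factor TEFM. The tRNAs sit between the mRNAs and rRNAs, and cutting them out releases the RNAs on either side: RNase P, made of TRMT10C, HSD17B10 and PRORP, cuts before a tRNA, and ELAC2 cuts after it. LRPPRC with SLIRP protects the mRNAs, MTPAP adds their poly(A) tails, and SUPV3L1 with PNPT1 degrades RNA. Most genes, with 12 of the mRNAs, are read from the heavy strand, and MT-ND6 is the mRNA read from the light strand.

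Of the 37 genes, 12 mRNA genes, 2 rRNA genes and 14 tRNA genes lie on the annotated plus strand of chromosome M, and 1 mRNA gene and 8 tRNA genes lie on the minus strand. All coordinates are GRCh38 positions on chromosome M from GENCODE 29. How tightly the genes are packed shows in the overlap of the genes for the ATP synthase subunits MT-ATP8 (chrM:8366-8572) and MT-ATP6 (chrM:8527-9207), which share 46 bases. The stretch is shown because a read that lies within it belongs to either gene; it is on the plus strand, 5′ to 3′, at chrM:8527-8572, with the start codon of MT-ATP6 in capitals.
MT-ATP8/MT-ATP6: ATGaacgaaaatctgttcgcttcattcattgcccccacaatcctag
MT-ND4L and MT-ND4 share 7 bases, MT-ATP6 and MT-CO3 share 1 base, and no mRNA gene overlaps an annotated gene of the opposite strand. The tRNA genes MT-TI and MT-TQ share 3 bases on opposite strands, and whether the authors' counting used the strand is not given in the sources used here. The ends of several mRNAs show the same economy. Below are the last 30 bases, 5′ to 3′ on the gene's own strand, of MT-CO1 and of the mRNAs compared below as early and late parts of the heavy-strand transcript, with the last codon, whole or partial, in capitals. The partial codons T and TA become stop codons when the poly(A) tail is added.
MT-ND1 3-prime end: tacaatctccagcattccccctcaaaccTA
MT-ND2 3-prime end: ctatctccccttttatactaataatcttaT
MT-CO1 3-prime end: ttcgaagaacccgtatacataaaatctAGA
MT-ND4L 3-prime end: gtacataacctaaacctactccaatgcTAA
MT-ND4 3-prime end: accccgacatcattaccgggttttcctctT
MT-ND5 3-prime end: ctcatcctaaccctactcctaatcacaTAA
MT-CYB 3-prime end: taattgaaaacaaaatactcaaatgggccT
These ends lie at chrM:4233-4262 for MT-ND1, chrM:5482-5511 for MT-ND2, chrM:7416-7445 for MT-CO1, chrM:10737-10766 for MT-ND4L, chrM:12108-12137 for MT-ND4, chrM:14119-14148 for MT-ND5 and chrM:15858-15887 for MT-CYB, all on the plus strand.

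Libraries held 234035407 to 625892507 expected counts, and replicate 1 was the deepest of each group. The 13 mRNAs together took 11555622 to 23392066 counts per library. The 2 rRNAs took only 13950 to 30834 counts, and rRNA had been depleted before library construction, so their values are of what was left after depletion. The 22 tRNAs took 1000 to 1782 counts. Of 8 epithelial markers checked, 6 (EPCAM, CDH1, KRT8, KRT18, KRT19 and KRT20) had a mean over 1 CPM (counts per 1000000 counts), while CDX1 was at 0 in all 6 libraries. Summed leukocyte markers reached at most 1.14 CPM, endothelial markers 0.500 CPM and fibroblast markers 5.69 CPM, of which COL1A1 alone had a mean over 1 CPM. Because RNA came from bulk cells, fewer mitochondrial genomes per cell and less RNA per genome cannot be told apart.

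On the per-length scale of TPM, the abundances of the mRNAs followed a similar order in every library. MT-ATP8 had the highest mean TPM over the 6 libraries, 23399, but its effective length was only 42.8 to 49.4 bases, so small errors in that length weigh heavily on its TPM. MT-CO1, MT-CO3 and MT-CO2, the subunits of cytochrome c oxidase, followed at mean TPM of 7843, 7581 and 7054, and their places overlapped: each ranged from place 2 up to place 3 or 4 across libraries. MT-ATP6 and MT-ND4 came next at 6403 and 6200 and swapped places between libraries. MT-ND4L, MT-ND2 and MT-ND3 had mean TPM of 4265, 3777 and 3776, and MT-CYB, MT-ND5 and MT-ND1 had 2796, 2796 and 2536, with neighbours again trading places. MT-ND6, the light-strand mRNA and a subunit of complex I, was last in all 6 libraries at 26.4 to 61.0 TPM. For the tRNAs the tables list an effective length and a TPM of 0 in every library, so they are described by counts.

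**Figure D1:**
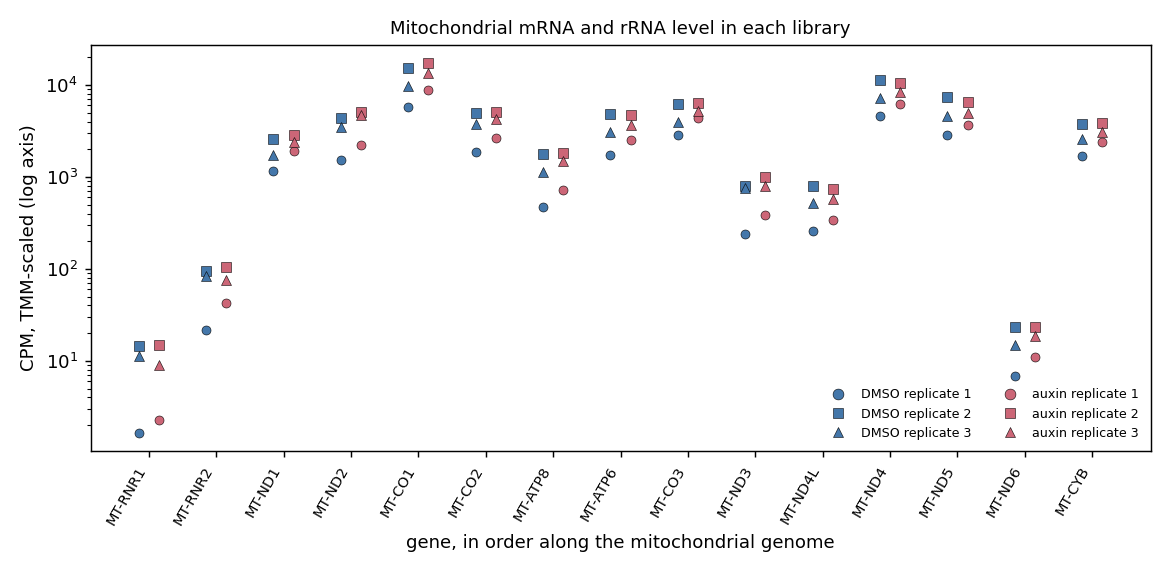
CPM (counts per 1000000 counts, scaled with TMM factors, log axis) of the 13 mRNAs and 2 rRNAs in genome order, with a point for each library, DMSO in blue and auxin in red, and a symbol for each replicate number. Replicate 1, drawn as circles, is the lowest library of its group for every gene shown, and the auxin and DMSO points overlap for every gene.

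Against nuclear genes, the mRNAs were on average higher in the auxin libraries, by less than the spread between replicates. The 13 log2 fold changes ran from 0.04 for MT-ND5 to 0.40 for MT-ND1, with a median of 0.23 and standard errors of 0.28 to 0.50. For MT-CO1, the catalytic subunit of cytochrome c oxidase, the TMM-scaled CPM was 5703, 15356 and 9713 in DMSO replicates 1, 2 and 3 and 8869, 17264 and 13432 in auxin replicates 1, 2 and 3. The groups overlapped, and replicate 1 was the lowest library of each. MT-ND1, a core subunit of complex I, had 1156, 2572 and 1741 CPM in DMSO and 1890, 2883 and 2420 CPM in auxin. MT-ND5, the complex I subunit encoded farthest along the heavy-strand transcript, had 2838, 7342 and 4557 CPM in DMSO and 3636, 6542 and 4977 CPM in auxin. Auxin replicate 2 was thus below DMSO replicate 2 for MT-ND5, while for MT-ND1 and MT-CO1 each auxin library was above the DMSO library of its number. MT-CYB, the mitochondrial subunit of complex III, had 1700, 3795 and 2591 CPM in DMSO and 2382, 3827 and 3071 CPM in auxin. MT-ND6 had 6.84, 23.3 and 15.0 CPM in DMSO and 11.1, 23.1 and 18.6 CPM in auxin, again overlapping.

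Of the 26 members that passed the filter on low counts (13 mRNAs, 2 rRNAs and 11 tRNAs), 0 were called higher and 0 lower in edgeR's quasi-likelihood test at a Benjamini-Hochberg adjusted p under 0.05. Over all genes tested, 25.4% were called higher and 26.9% lower, or 52.3% in either direction, and the median log2 fold change was 0.02. Without adjustment, 0 of the 26 members had a p under 0.05 in edgeR. DESeq2 and limma-trend on log2(TPM + 1) likewise called 0 members, with 0 at an unadjusted p under 0.05, where they called 43.9% and 20.0% of all genes. The 11 tRNAs have a TPM of 0 in every library, so limma-trend could call only mRNAs and rRNAs. Adjusted p-values of the mRNAs in edgeR were 0.289 to 0.937. For 0 of the 26 members did the auxin and DMSO ranges of CPM stand apart, against 60.3% of all genes tested.

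All 13 mRNAs were higher with auxin in the replicate 1 pair and in the replicate 3 pair. In the replicate 2 pair 8 of 13 were higher. The share of all genes higher in each pair was not taken. The mRNAs made up nearly all of the mitochondrial share of counts, which differed by 0.99, -0.22 and 0.75 percentage points in pairs 1, 2 and 3. Their directions are thus not 13 separate results. Libraries were paired by replicate number, which the data bore out for number 1 only, so blocked results and pairwise directions rest on that choice. With the replicate number as a block in the edgeR fit, 10 of the 13 mRNAs and 1 tRNA, MT-TA, were called higher and 0 members lower. These 11 are 42.3% of the members tested, beside 35.5% of all genes called higher and 34.4% called lower in the same fit. By class, the share called higher was 76.9% of the mRNAs, 9.09% of the 11 tRNAs tested and 0% of the rRNAs. MT-ND1, with a log2 fold change of 0.45 ± 0.09 (SE), had an adjusted p of 0.00163 in edgeR with the block, and over the 25 alternatives tried its adjusted p ran from 2.96e-07 to 0.588. MT-CO1 had 0.42 ± 0.07 (SE) with an adjusted p of 0.00104 in edgeR with the block and a range of 3.42e-09 to 0.847 over the alternatives. MT-ND2 had 0.38 ± 0.06 (SE) with an adjusted p of 0.000333 in edgeR with the block, and a range of 2.55e-08 to 0.972. The mRNAs not called with the block were MT-ND4L, MT-ND4 and MT-ND5, at 0.14, 0.19 and 0.11; MT-CYB, which lies beyond them, was called at 0.25.

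The blocked count moved with the scaling and with the libraries. It was 16 with upper-quartile factors, where 42.5% of all genes were called higher, and 7 with library size alone, where 30.0% were. Limma-trend on log2(TPM + 0.1) with the block called 0 of the 13 mRNAs and 0 of the 2 rRNAs, and 17.7% of all genes higher. The tRNAs, with a TPM of 0 in every library, could not be called in that fit. With replicates 2 and 3 alone and no block, 2 members were called higher, MT-ND2 and MT-TA, with 30.2% of all genes. Without the block, single libraries set the direction: leaving out DMSO replicate 1 gave a median of -0.10 over the mRNAs, with 9 of 13 below 0, and leaving out auxin replicate 2 gave a median of -0.01, with 8 of 13 below 0. MT-ND4L and MT-ND5 also changed sign, with no call, with library size alone and on the TPM scale.

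Set against the mitochondrial mRNAs themselves, several mRNAs differed in the same direction in every pair of same-numbered libraries. MT-CO1 made up 22.9%, 23.9% and 22.8% of the mRNA counts in DMSO replicates 1, 2 and 3 and 24.5%, 26.2% and 25.3% in auxin, or 23.2% ± 0.607 against 25.3% ± 0.830 (SD, n = 3 each). Every auxin library was above every DMSO library for MT-CO1, and the exact permutation p was 0.1, the smallest that 20 assignments of 3 and 3 libraries allow. MT-ND5 made up 11.4%, 11.4% and 10.7% in DMSO and 10.0%, 9.91% and 9.39% in auxin, or 11.2% ± 0.402 against 9.78% ± 0.348 (SD, n = 3 each). For MT-ND5 every auxin library was below every DMSO library, again with an exact permutation p of 0.1. Over the 13 mRNA shares compared, the Benjamini-Hochberg adjusted exact p was 0.65 for MT-CO1 and MT-ND5 and higher for the other 11, so neither difference passed a threshold of 0.05. Non-overlap relative to mitochondrial mRNA was seen in 17.7% of all genes tested.

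Shares of other subunits kept their direction in every pair but overlapped between groups. MT-ND1 went from 4.24% ± 0.343 to 4.72% ± 0.447 (SD, n = 3 each; exact permutation p = 0.3), with log2 differences between same-numbered libraries of 0.17, 0.13 and 0.16. MT-ND4 went from 17.7% ± 0.614 to 16.4% ± 0.703 (SD, n = 3 each; exact permutation p = 0.2), with pair differences of -0.09, -0.14 and -0.10. MT-ND4L went from 1.17% ± 0.120 to 1.05% ± 0.0865 (SD, n = 3 each; exact permutation p = 0.3), with pair differences of -0.12, -0.16 and -0.19. MT-ND1, MT-CO1 and MT-CO3 were higher in 3 of 3 pairs, and MT-ND4L, MT-ND4, MT-ND5 and MT-CYB were lower in 3 of 3 pairs. How many of all genes kept their direction in 3 of 3 pairs was not taken. The other 6 mRNAs had pairs of either sign; MT-ND3 was the most uneven, at 0.17, 0.26 and -0.23.

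**Figure D2:**
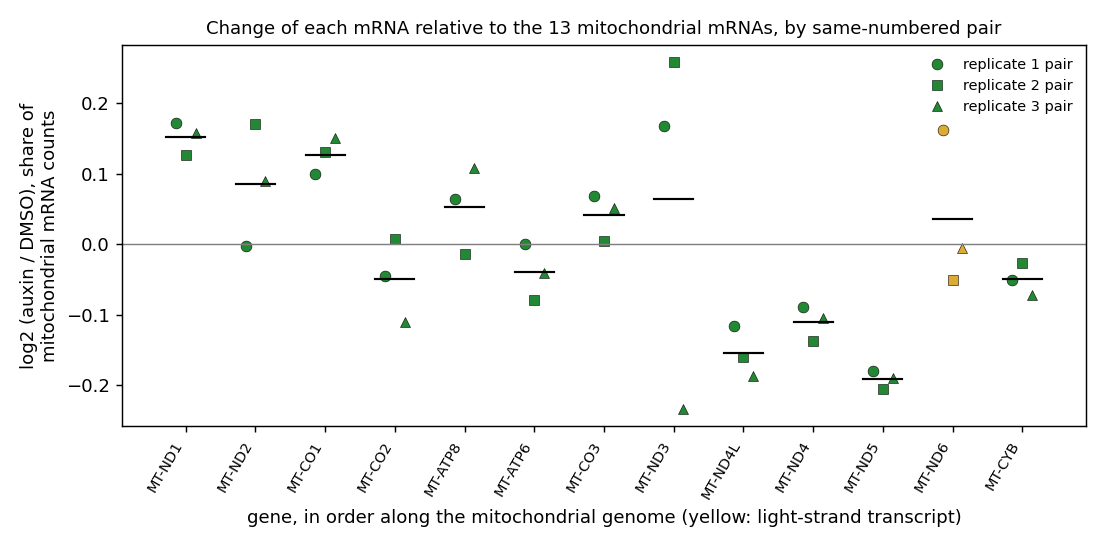
Log2 ratio of auxin to DMSO in each mRNA's share of mitochondrial mRNA counts, in genome order, for the 3 same-numbered pairs (symbols) and their mean (black lines). MT-ND1, MT-CO1 and MT-CO3 are above 0 in every pair, MT-ND4L, MT-ND4, MT-ND5 and MT-CYB are below 0 in every pair, and MT-ND6 (yellow) is the light-strand mRNA.

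The mRNAs at the start and at the end of the heavy-strand transcript were compared next. MT-ND1 (chrM:3307-4262) and MT-ND2 (chrM:4470-5511) are the mRNAs read soonest from the heavy-strand promoter, and MT-ND4L (chrM:10470-10766), MT-ND4 (chrM:10760-12137), MT-ND5 (chrM:12337-14148) and MT-CYB (chrM:14747-15887) are the last to be read. The mean log2 count of those 4 distal mRNAs less that of the 2 proximal mRNAs was 0.21, 0.25 and 0.06 in DMSO replicates 1, 2 and 3 and 0.02, -0.03 and -0.20 in auxin replicates 1, 2 and 3. Every auxin library was below every DMSO library. The means were 0.17 ± 0.10 in DMSO and -0.07 ± 0.11 in auxin (SD, n = 3 each), a difference of -0.25 with an exact permutation p of 0.1, and 0.5 after Benjamini-Hochberg adjustment over the 5 ratios compared. Pair by pair the differences were -0.19, -0.28 and -0.26. Leaving out any 1 library left the difference between -0.30 and -0.18, and using summed counts in place of mean log2 values gave -0.24 with overlapping groups and an exact permutation p of 0.2. Across the 12 heavy-strand mRNAs, Spearman's rho between start position and mean relative change was -0.83, and it was -0.65, -0.67 and -0.71 in the 3 pairs. These points come from the same 6 libraries and their shares sum to a fixed total, so the rho is a description only. MT-ND4L with MT-ND4, and MT-ATP8 with MT-ATP6, overlap with no tRNA between them, and values here are counted by gene. Whether each such pair gives 2 separate values was not tested. The order was not strict: MT-CYB, the last gene, had a mean relative change of -0.05, like MT-CO2 at -0.05 and MT-ATP6 at -0.04 in the middle, and MT-CO3 and MT-ND3 were above the genes before them, at 0.04 and 0.06. The length of MT-CO1 less its effective length, which follows the fragment length of a library, was 199 to 208 bases in DMSO and 199 to 207 bases in auxin, so the groups overlapped in it.

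The remaining 4 ratios did not separate the groups. The log2 ratio of MT-ND6 to the 12 other mRNAs was -7.68, -7.35 and -7.44 in DMSO and -7.53, -7.41 and -7.42 in auxin, a difference of 0.04 (exact permutation p = 0.8). rRNA to mRNA differed by 0.01 and tRNA to mRNA by 0.01 (exact permutation p = 1 for each). Leaving out 1 library took these differences from -0.34 to 0.28 and from -0.19 to 0.14. The tRNA genes are listed at an effective length of 0, so their ratio describes counts and is not read as tRNA abundance. MT-RNR1, the small-subunit rRNA at chrM:648-1601, against MT-RNR2, the large-subunit rRNA at chrM:1671-3229, was -3.70, -2.69 and -2.88 in DMSO and -4.21, -2.82 and -3.06 in auxin. This ratio was lower with auxin in 3 of 3 pairs, but replicate 1 stood more than that difference below replicates 2 and 3 in both groups, and the group difference of -0.27 had an exact permutation p of 0.6. Without auxin replicate 1 the difference was 0.15. In TMM-scaled CPM, MT-RNR1 had 1.65, 14.7 and 11.2 in DMSO and 2.30, 14.9 and 9.06 in auxin, and MT-RNR2 had 21.5, 94.7 and 82.8 in DMSO and 42.6, 105 and 75.7 in auxin. The rRNA values of replicate 1 were thus the lowest in each group, and how far the depletion step sets them was not tested.

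**Figure D3:**
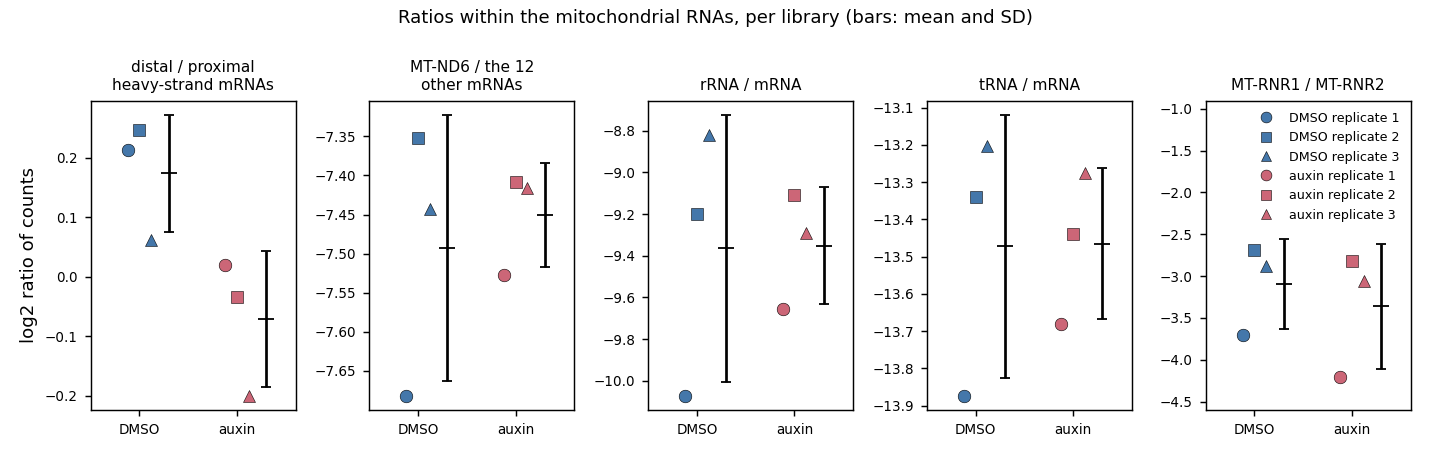
Log2 ratios of counts within the mitochondrial RNAs for each library, with group mean and SD bars (n = 3 each). In the distal to proximal panel the auxin libraries lie between -0.20 and 0.02 and the DMSO libraries between 0.06 and 0.25, while in the other 4 panels the groups overlap and replicate 1 is the lowest of each group.

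The edgeR fit scaled to the summed mitochondrial mRNA counts called 0 of the 26 members tested, without the block and with it, where 10.3% and 48.4% of all genes tested were called. Of the 26, 0 had an unadjusted p under 0.05 in either fit. On simulated data the fit without the block recovered 0.2% of nuclear genes changed 2-fold, against 54.4% under TMM. No member was changed in the simulation, so it did not measure how often a changed member would be called. The standard errors of the members in the fit without the block were 0.38 to 0.79, and no conclusion is drawn from its lack of calls. The fit with the block was not simulated; its standard errors for the members were 0.15 to 0.48, and its lowest adjusted p among them in edgeR was 0.109, for MT-TA. Leaving out DMSO replicate 1 gave 1 higher call, MT-TS1, with 2.0% of all genes called higher.

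By respiratory complex, the mRNAs of complex I, the NADH dehydrogenase, together took a smaller share of mitochondrial mRNA TPM in each auxin library. Their 7 genes held 30.4%, 29.7% and 31.3% in DMSO and 29.4%, 29.2% and 29.3% in auxin, or 30.5% ± 0.826 against 29.3% ± 0.139 (SD, n = 3 each), with no overlap between the groups and an exact permutation p of 0.1. Adjusted over the 4 complexes the exact p was 0.4. The genes of complex I did not move together. In shares of mRNA counts, the log2 ratio of group means was -0.16 for MT-ND4L, -0.11 for MT-ND4 and -0.19 for MT-ND5. It was 0.15 for MT-ND1, 0.09 for MT-ND2, 0.04 for MT-ND3 and 0.03 for MT-ND6. On the count scale the complex I share differed by -1.84 percentage points in place of -1.17. Shares of complex III (3.72% against 3.55%), complex IV (28.6% against 29.2%) and complex V (37.2% against 38.0%) overlapped between groups, with an exact permutation p of 0.5 for each. On the count scale the complex IV share differed by 2.17 percentage points in place of 0.54, with no overlap and an exact permutation p of 0.1, and the complex V share by -0.11 in place of 0.79. Leaving out 1 library took the TPM differences from -0.57 to 1.65 for complex IV, from -0.58 to 2.22 for complex V and from -0.42 to 0.10 for complex III. The complex V share rests largely on MT-ATP8 and its short effective length.

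The nuclear genome encodes most subunits of the same complexes, and the balance of mitochondrial to nuclear subunit mRNA did not separate the groups. The log2 ratio of summed TPM over complexes I, III, IV and V together was 2.45, 3.60 and 3.03 in DMSO and 2.87, 3.57 and 3.23 in auxin, a difference of 0.19 with an exact permutation p of 0.7. For complexes I, III, IV and V singly, the differences were 0.25, 0.24, 0.13 and 0.19, and the exact permutation p was 0.8 for all 5 ratios after Benjamini-Hochberg adjustment. Leaving out 1 library took the difference from -0.09 to 0.48 over the 4 complexes together, from -0.03 to 0.52 for complex I, from 0.07 to 0.46 for complex III, from -0.09 to 0.39 for complex IV and from -0.17 to 0.53 for complex V. Of the 75 nuclear subunit genes tested, 13 were called higher and 20 lower in edgeR, or 17.3% and 26.7%, beside 25.4% and 26.9% of all genes tested, and the median log2 fold change was 0.17. The 11 complex IV subunits had 0 calls in either direction, complex I had 6 higher and 13 lower of 37, complex III 2 and 3 of 9, and complex V 5 and 4 of 18. With the replicate block the counts over the 75 were 44 higher and 21 lower, where 35.5% and 34.4% of all genes were called, and 8 of the 11 complex IV subunits were called higher.

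The tRNA genes are 59 to 75 bases long, shorter than the fragments of these libraries, and their counts were low. MT-TF, the tRNA for phenylalanine, opens the heavy-strand transcript and had the most counts, 677, 981 and 686 in DMSO and 1171, 817 and 693 in auxin. Per 1000000 mitochondrial mRNA counts these were 45.1, 54.2 and 59.4 in DMSO and 50.1, 51.8 and 59.0 in auxin, so the groups overlapped. MT-TA, the tRNA for alanine on the minus strand, was the tRNA called with the block: it had 25, 60 and 42 counts in DMSO and 44, 100 and 59 in auxin. Its blocked log2 fold change was 0.84 ± 0.22 (SE) with an adjusted p of 0.00913 in edgeR, and 0.89 ± 0.77 (SE) with an adjusted p of 0.373 without the block. Over the alternatives on counts, in edgeR and DESeq2, its adjusted p ran from 0.00411 to 0.823. On the TPM scale its value is 0 in every library, so no call was possible there. Of the 11 tRNAs tested, 11, 3 and 5 were higher with auxin in the pairs of replicates 1, 2 and 3. The share of all genes higher in each pair was not taken.

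The sequences of 4 tRNA genes are shown because their counts carry what can be said of the tRNAs: MT-TF had the most, MT-TA was the tRNA called with the block, and MT-TM and MT-TS1 separated replicate 1 from the other replicates. They are given as DNA, 5′ to 3′ on the gene's own strand, with the anticodon in capitals.
MT-TF: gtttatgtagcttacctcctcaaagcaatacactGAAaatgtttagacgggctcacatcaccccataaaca
MT-TA: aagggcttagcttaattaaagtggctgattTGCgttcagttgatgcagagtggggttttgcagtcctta
MT-TM: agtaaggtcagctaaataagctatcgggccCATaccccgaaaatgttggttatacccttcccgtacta
MT-TS1: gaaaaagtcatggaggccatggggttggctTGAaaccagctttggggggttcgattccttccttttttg
MT-TF (chrM:577-647) and MT-TM (chrM:4402-4469) are on the plus strand, and MT-TA (chrM:5587-5655) and MT-TS1 (chrM:7446-7514) on the minus strand, where MT-TS1 abuts the end of MT-CO1 on the other strand. If counting did not use the strand, reads of the opposite transcript would be counted to these minus-strand genes.

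In the tRNA profile, replicate 1 stood apart in both groups. MT-TM, the tRNA for methionine, had 17 counts in DMSO replicate 1 and 23 in auxin replicate 1, against 289 and 183 in DMSO replicates 2 and 3 and 197 and 216 in auxin replicates 2 and 3. MT-TS1, a tRNA for serine, ran the other way, with 78 and 160 counts in replicate 1 of DMSO and auxin, against 6 and 7 in the other DMSO libraries and 10 and 5 in the other auxin libraries. These tRNAs were singled out after their values were seen. MT-TC and MT-TE were lower, and MT-TQ higher, in replicate 1 of both groups relative to mitochondrial mRNA. The other 11 tRNAs fell under the filter on low counts. MT-TD and MT-TG had 0 counts in all 6 libraries, which allows at most 3 counts, or 0.0128 CPM in the shallowest library, as counting error only. MT-TW was listed at 0, 0 and 0 in DMSO and 5, 1 and 2 in auxin. MT-TT was at 1, 1 and 1 in DMSO and 12, 4 and 1 in auxin. MT-TK went the other way, at 3, 5 and 1 in DMSO and 3, 0 and 0 in auxin. MT-TW, MT-TT and MT-TK too were singled out after their values were seen. The others under the filter (MT-TI, MT-TQ, MT-TY, MT-TR, MT-TL2 and MT-TP) had 0 to 43 counts.

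**Figure D4:**
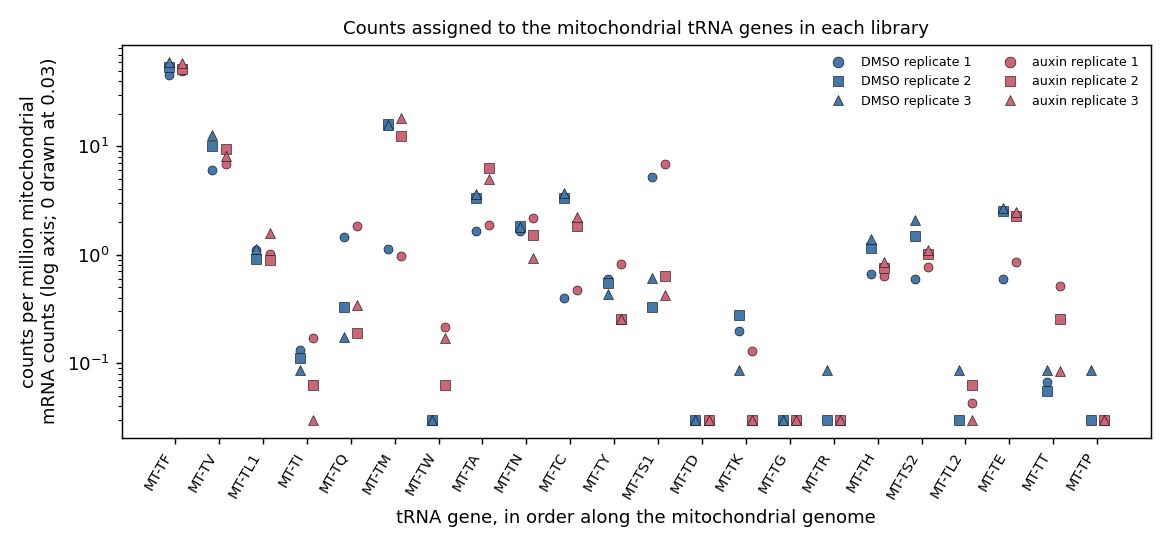
Counts of the 22 tRNA genes per 1000000 mitochondrial mRNA counts in each library, in genome order, on a log axis with 0 drawn at 0.03. MT-TF is at 45.1 to 59.4 in every library, MT-TM is lower and MT-TS1 higher in replicate 1 (circles) of both groups, and MT-TD and MT-TG are at 0 in all 6 libraries.

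Nuclear genes that make and process mitochondrial RNA changed in both directions. Of 77 genes in 4 lists, all tested, 31 were called higher and 17 lower in edgeR with auxin, or 40.3% and 22.1%, beside 25.4% and 26.9% of all genes tested, and the median log2 fold change was 0.12, beside 0.02 over all genes. The balance turned on the TPM scale: limma-trend called 5 higher and 14 lower on log2(TPM + 1), where 4.92% of all genes were called higher and 15.0% lower, and 6 higher and 14 lower on log2(TPM + 0.1). Among the 18 genes of transcription and replication, 5 were higher and 5 lower. POLRMT, the polymerase itself, had 49.6, 35.5 and 37.01 CPM in DMSO and 6.73, 4.33 and 4.99 CPM in auxin. Its groups were far apart, and it fell by 2.92 ± 0.20 (SE) on the log2 scale with an edgeR adjusted p of 3.44e-05. TFB2M, which opens the promoter for POLRMT, went from 25.4 ± 2.55 CPM in DMSO to 41.3 ± 3.56 CPM in auxin (SD, n = 3 each) and rose by 0.70 on the log2 scale, with an edgeR adjusted p of 0.000836. TFAM, which packages the genome and bends the promoter, had 79.9 ± 7.41 CPM in DMSO and 79.1 ± 7.29 CPM in auxin (SD, n = 3 each); its log2 difference was -0.02 with an edgeR adjusted p of 0.904. TEFM was at 0.15, with an edgeR adjusted p of 0.196.

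Of the 24 genes of RNA cleavage and tRNA maturation, 11 were higher and 5 lower, with a median of 0.08. These were 45.8% and 20.8%, beside 25.4% and 26.9% of all genes tested. ELAC2, the enzyme that cuts after tRNAs, had 130, 138 and 150 CPM in DMSO and 46.4, 47.9 and 52.0 CPM in auxin, and fell by 1.52 ± 0.08 (SE) with an edgeR adjusted p of 8.91e-06. The subunits of RNase P moved less: TRMT10C rose by 0.30 (edgeR adjusted p = 0.0241), a call lost in 7 of 25 alternatives, while PRORP was at 0.12 and HSD17B10 at 0.02 with no call. TRMT1, which methylates tRNAs, fell by 3.08. METTL8, TRNT1, TRMT5 and PUS1, which methylate tRNAs, add their CCA end, methylate them beside the anticodon and make pseudouridine, rose by 1.16, 1.10, 1.03 and 0.94; of these 4 calls only that of PUS1 was lost, in 2 of 25 alternatives.

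Of the 18 genes of rRNA modification and ribosome assembly, 4 were higher and 6 lower, with a median of 0.01. These were 22.2% and 33.3%, near the 25.4% and 26.9% of all genes tested. DHX30, an RNA helicase of mitochondrial ribosome assembly, had 88.5, 79.4 and 85.5 CPM in DMSO and 22.3, 18.8 and 19.9 CPM in auxin, and fell by 2.06 ± 0.08 (SE) with an edgeR adjusted p of 3.79e-06. MRM1, a methyltransferase of the large rRNA, fell by 3.11 from a low level of 2.63 ± 0.293 CPM (SD, n = 3). FASTKD2, which binds the large rRNA, rose by 0.24, a call lost in 9 of 25 alternatives.

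Of the 17 genes of mRNA stability, polyadenylation and decay, 11 were higher and 1 was lower, with a median of 0.36. These were 64.7% and 5.88%, beside 25.4% and 26.9% of all genes tested. The lower gene was FASTK, whose mitochondrial form maintains MT-ND6 mRNA; it had 18.6, 11.9 and 10.9 CPM in DMSO and 3.75, 2.09 and 2.32 CPM in auxin and fell by 2.34 ± 0.29 (SE), with an edgeR adjusted p of 0.000504. PTCD2, SUPV3L1 and MTPAP, which act on MT-CYB mRNA, on RNA decay and on poly(A) tails, rose by 0.95, 0.58 and 0.54, calls lost in 1, 2 and 2 of 25 alternatives. FASTKD5, which acts where no tRNA separates the mRNAs, rose by 0.35, and TBRG4, also called FASTKD4, rose by 0.26, calls lost in 3 and 8 of 25 alternatives. LRPPRC and SLIRP were at 0.07 and 0.20, and PNPT1 at 0.38, with edgeR adjusted p-values of 0.613, 0.154 and 0.0609. With the replicate block, TEFM, PRORP, SLIRP and PNPT1 were also called higher, and the 77 genes gave 42 higher and 21 lower, beside 35.5% and 34.4% of all genes. TEFM, PRORP, SLIRP, FASTKD2, PTCD2, TRMT5, TRNT1 and METTL8 each overlap a tested gene of the opposite strand. Their counts are uncertain if counting did not use the strand. FASTKD5, PUS1, PRORP and TBRG4 each overlap a tested gene of the same strand, which strand cannot tell apart. How far these overlaps set the counts was not tested.

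**Figure D5:**
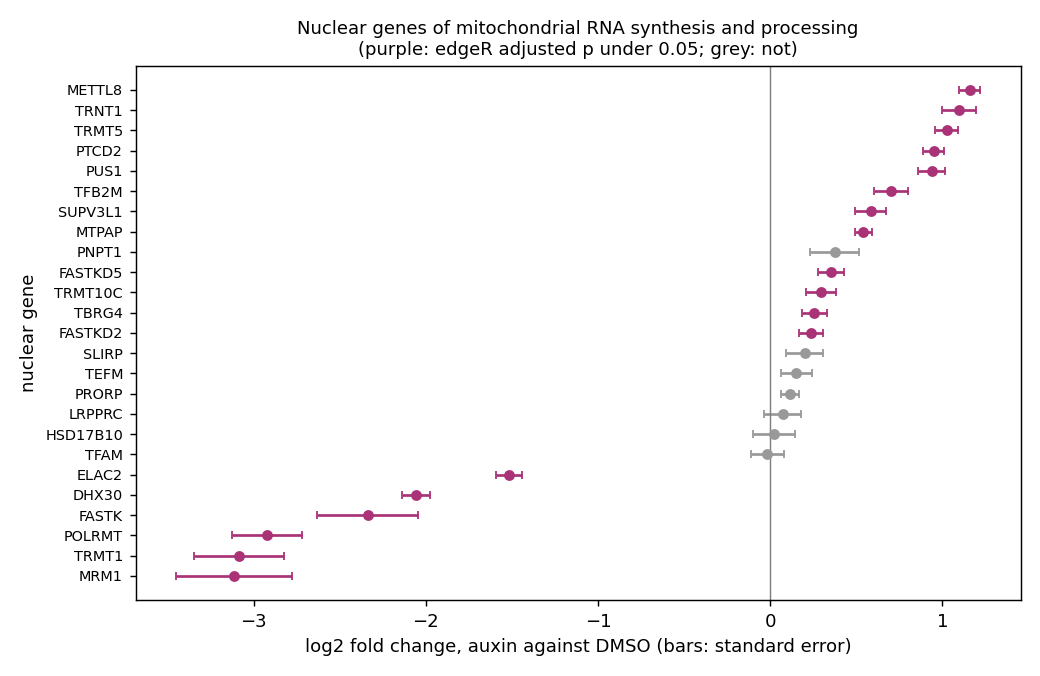
Log2 fold change of auxin against DMSO with its standard error for the 25 named nuclear genes of mitochondrial RNA synthesis, processing and decay, in order of size, with edgeR calls in purple. MRM1, TRMT1, POLRMT, FASTK, DHX30 and ELAC2 lie between -3.11 and -1.52, and METTL8, TRNT1 and TRMT5 lie above 1.

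Copies of mitochondrial DNA in nuclear chromosomes can draw reads away from the members. The tables list 394 annotated nuclear pseudogene copies of the mitochondrial genes. For MT-ATP6 they took between 3.23% and 5.57% of the gene's own count, of which MTATP6P1 held 99.9%, and for MT-ND2 between 1.24% and 2.21%, of which MTND2P28 held 99.7%. For MT-ND6 they took at most 1.15%, and for the other 10 mRNAs at most 0.0537%. Adding these counts to the members left 0 of 26 called, with mRNA log2 fold changes of 0.04 to 0.39.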

How the data were processed

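Total RNA of the 6 libraries was depleted of rRNA with a FastSelect kit and made into stranded libraries, per the labels' protocols. The submitters' processing notes name bcl2fastq 2.20, STAR, DESeq2 and the builds GRCh38 and hg38; the counting program, its annotation and its strand setting are not given in the sources used here. Per the file headers, the authors deposited for each library an expected count per gene, an estimated number of reads that is not normalized, and a TPM, which is scaled by effective length to a fixed total. The deposited effective length and posterior standard deviation of the count, per the file headers, were used as descriptions.

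All 58780 human gene IDs were matched to GENCODE 29. IDs that name no human gene took 2.55 to 11.1 CPM of a library and were left out. Expected counts were rounded and tested with edgeR 4.0.16 in R 4.3.3 (filterByExpr, TMM factors, quasi-likelihood test, no covariate), with Benjamini-Hochberg adjustment over 19725 genes and calls under 0.05. Standard errors of log2 fold changes were computed from the F statistic. A second fit took the summed mitochondrial mRNA count as library size. Alternatives used DESeq2 1.42.0 and limma 3.58.1. In 5 simulated sets with 200 changed genes among 19725, 54.4% of genes changed 2-fold and 22% of those changed 1.5-fold were called by the TMM fit, and 7.95% of the genes it called had not been changed. Shares and ratios were compared by two-sided exact permutation over 20 assignments, and Spearman's rho was computed with scipy 1.17.1.

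Same-numbered DMSO and auxin libraries deviated together from their group means over 19725 genes, with correlations of 0.65, 0.27 and 0.28 for numbers 1, 2 and 3. DMSO replicate 3 with auxin replicate 2 gave 0.31, and DMSO replicate 2 with auxin replicate 3 gave 0.18. Because replicate 1 stood apart in both groups, replicates 2 and 3 correlate however they are matched. The data thus matched number 1 only, and libraries 2 and 3 were paired by number alone. The labels do not say what a number shares. Libraries of the same group differed from each other by a chi-square of 34.8 to 527.7 per degree of freedom, so none were counted as duplicates. The mitochondrial share of all counts was 2.75%, 6.38% and 4.28% in DMSO replicates 1, 2 and 3 and 3.74%, 6.16% and 5.03% in auxin replicates 1, 2 and 3. The groups overlapped, with an exact permutation p of 0.8. Each share had a 95% Wilson interval no wider than ± 0.00294 percentage points, which, like the limits for counts of 0, covers counting error only.

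The 37 members and all gene lists were chosen with earlier results of these data known. Values per library were given for mRNAs, rRNAs and called or most abundant tRNAs, and for tRNAs singled out after their values were seen. From the machinery lists, 16 genes were always named, with the 5 largest called changes in each direction at a mean of at least 1 CPM.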

Additional observations from a re-analysis of the deposited data

How the results depend on the processing

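With replicate numbers as a block, the number of members called higher against nuclear genes went from 0 to 11. Combined with upper-quartile factors or library size alone the block gave 16 and 7, where 42.5% and 30.0% of all genes were called higher. With scaling from nuclear genes it gave 11, and with pair 1, 2 or 3 left out 11, 14 and 10 of 25, 27 and 28 members tested. The share of all genes called higher was not taken for the latter fits, so their counts cannot be set against it. All these combinations were chosen after seeing the data. Replicates 2 and 3 alone gave 2 without a block. Leaving out single libraries without the block gave 0 throughout. The count of members called lower was 0 under all 25 alternatives. Relative to mitochondrial mRNA, leaving out DMSO replicate 1 gave 1 call, and the range over left-out libraries was 0 to 1. The complex I share differed by -1.84 percentage points with counts in place of TPM. Of the 77 machinery genes, 51 were called higher and 17 lower with the block and upper-quartile factors, where 42.5% of all genes were called higher. Limma-trend on TPM called 5 higher and 14 lower with a pseudocount of 1, and 6 and 14 with 0.1. With the block and a pseudocount of 0.1 it called 20 higher and 22 lower, where 17.7% of all genes were called higher. The TFAM log2 fold change against nuclear genes reversed, to 0.11 with an edgeR adjusted p of 0.0173, under the block with upper-quartile factors, a scaling that by itself moved the median gene by 0.12 (log2); under the block with library size alone it was called lower, at -0.10 with an edgeR adjusted p of 0.0182. Library size alone moved it by -0.09 and the TPM scale by -0.14 to -0.15. The causes of these differences were not tested. Of the other summary values, 232 stayed within the limit set for a change, which for shares and ratios was the replicate spread. That limit is wide, and the 232 include values that changed sign and counts of 0 that stayed 0. For example, the difference in mitochondrial share went from 0.51 to -0.35 percentage points without DMSO replicate 1. No stability is read from the 232. Of 1529 single-gene values, 1374 kept their side of the threshold, and 158 of these 1374 changed sign with no call under either setting. A further 120 single-gene values gained a call and 34 lost it. Beyond the 11 members and TEFM, SLIRP, PRORP and PNPT1, the block changed no call of a named gene. tRNA counts of 0 to 1171 limit what can be said of them, and exact tests of 3 against 3 cannot go below 0.1.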
